A study of Mus musculus with 28 samples.

Results

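The nuclear genes of the mitochondrial respiratory chain and ATP synthase were followed through the RNA-seq, ChIP-seq, and chromatin RNA-seq data of mouse ES cells (mESCs) of the E14 line. Members were the protein-coding genes whose symbol in the chromatin RNA count file starts with *Nduf*, *Sdh* followed by a, b, c, or d, *Uqcr*, *Cox4i*, *Cox5*, *Cox6*, *Cox7*, *Cox8*, or *Atp5*. This gave 96 of the 21432 protein-coding genes and of the 27179 genes of any kind in that file. By their symbols, 45 belonged to complex I, 8 to complex II, 8 to complex III, 18 to complex IV, and 17 to complex V, and 11 of the 96 were assembly factors, 7 of complex I and 4 of complex II. The rule reads symbols alone. Only *Ndufaf* and *Sdhaf* symbols count as assembly factors, and every other member is counted as a subunit of the complex its symbol names.

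The respiratory chain sits in the inner mitochondrial membrane. Complex I takes electrons from NADH and complex II from succinate, complex III passes them from coenzyme Q to cytochrome c, and complex IV hands them to oxygen, while complexes I, III, and IV pump protons whose return through complex V, the ATP synthase, drives ATP formation. All subunits of complex II and most subunits of the others are encoded in the nucleus, and the remaining ones in mitochondrial DNA (mtDNA), so that both genomes must supply complexes I, III, IV, and V. Pluripotent stem cells are known for a large reliance on glycolysis and for mitochondria of immature shape.

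The RNA-seq compared E14 mESCs that received scramble control vectors with mESCs that received shRNA vectors against *Ssrp1* (a combination of shRNA 1 and shRNA 2), both selected with puromycin (2 μg/ml) for 24 h from 48 h after transfection. *Ssrp1* and *Supt16* encode the subunits of FACT, a histone chaperone. The vectors for the knock-down (KD) were lentiviral vectors, given by transfection. There were 4 control and 4 KD libraries of total RNA depleted of ribosomal RNA, with spike-in RNA added, named biological replicates in the methods of the study, while the labels do not say whether the 4 came from separate cultures. If they did not, p-values measure only the spread between these libraries. E14 mESCs with no treatment in their labels gave 2 chromatin RNA libraries and, for each FACT subunit, 1 peak list called on 2 replicates together. The values below are the library-size values that the authors deposited, which are gene counts divided by 1 factor per library. Reads recovered from them numbered 4602278 to 6680919 in the control and 9433193 to 19856032 in the KD libraries, so low values are less precise in control.

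The targeted gene was examined first. *Ssrp1* stood at 261, 229.8, 223, and 226 in the control libraries and at 24.1, 26.4, 24.9, and 28.9 in the KD libraries (replicates 1 to 4, the order of all values below), a log2 fold change of -3.15 (standard error 0.069, adjusted p = 1.18e-22, limma). *Supt16* had 319 ± 22.0 in control and 504 ± 20.2 in KD (SD, n = 4 each), a log2 fold change of 0.66, which became 0.03 by quantile normalisation (adjusted p = 0.468, limma) and 0.00264 with a loess correction for mean level (adjusted p = 0.969, limma). These are RNA values. For the protein, the study reported by mass spectrometry that SUPT16 was depleted together with SSRP1. The cells also differed in markers of cell state. All 9 of 9 mESC markers were higher in KD (summed values 1640 to 1762 in control and 4707 to 5193 in KD), while 7 of 7 epithelial and trophectoderm markers with a value, 7 of 7 primitive endoderm markers, 5 of 6 fibroblast markers, and 5 of 6 neural progenitor markers were lower, each at an adjusted p below 0.01. The summed values of these lists ran from 1017 to 1368 in control and from 759 to 804 in KD for epithelial and trophectoderm markers, from 551 to 683 and from 404 to 428 for primitive endoderm, from 64.7 to 82.5 and from 23.7 to 26.7 for fibroblasts, and from 108 to 139 and from 163 to 172 for neural progenitors, where *Tubb3* alone rose. Of these lists *Elf5*, *Dcn*, and *Lum* had no value. Among all genes, 35.4% were higher and 37.3% lower at that adjusted p. The log2 fold change of all genes rose with control value. Its medians were -0.68, -0.28, 0.13, and 0.34 in 4 equal classes of genes, ordered from low to high control value. The markers were not matched for level, so the part of level in the marker counts was not tested. The part of the marker differences in the results on respiratory genes was not tested, and fewer cells of a type and less RNA per cell cannot be told apart in such bulk libraries.

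Most nuclear respiratory genes were higher after *Ssrp1* KD. Of the 96 members 88 had an RNA-seq value. A member was called when its log2 fold change was above 1, or below -1, at an adjusted p below 0.01 (limma across 15384 genes, values as log2(value + 0.5)). By this rule 31 of the 88 were higher, against 8.07% of all genes, and 0 were lower, against 20.6% of all genes. With edgeR and with DESeq2 the count of lower members was 0 as well, and at an unadjusted p below 0.05 in limma, with no limit on the fold, 2 were lower. At an adjusted p below 0.01 alone, 79 were higher and 1 was lower, against 35.4% and 37.3% of all genes. For 79 members every KD library lay above every control library, which held for 35.8% of all genes, and for 1 member every KD library lay below (37.5% of all genes). The median log2 fold change was 0.82 for the members and -0.03 for all genes. Together the 88 members summed to 8041, 7242, 7170, and 7646 in the control libraries, which was 0.861% to 0.884% of all values, and to 13862, 13689, 14072, and 12912 in the KD libraries, or 1.14% to 1.19%. The 2 groups of sums did not overlap. With the authors' spike-in scaling the median of all genes moved up to 0.95, and 84 members were called higher where 48.1% of all genes were. Scaled to an equal sum per library the median of all genes was -0.45, and 8 members were called higher where 2.23% of all genes were.

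**Figure D1:**
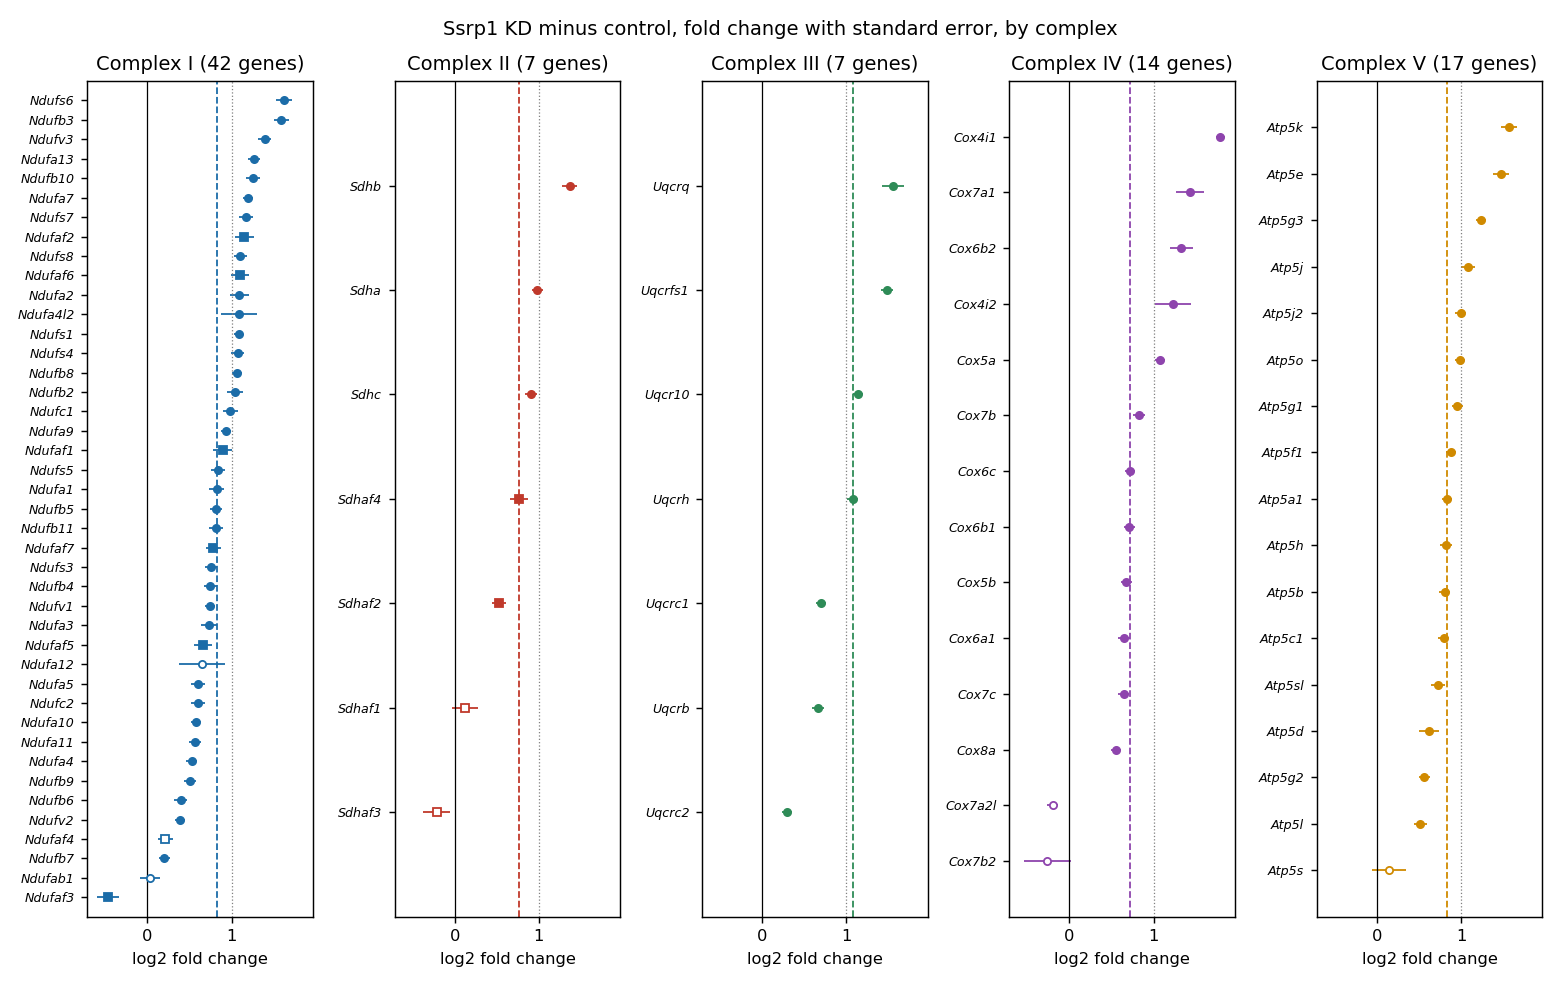
Log2 fold change of 87 of the 88 members (KD minus control, x axis) with its standard error, in 1 panel per complex and ordered by size. Squares are assembly factors by symbol (*Ndufaf*, *Sdhaf*), and circles are all other members. Filled symbols passed an adjusted p below 0.01. The dashed line is the median of all members of the complex and the dotted line a log2 fold change of 1. Nearly all symbols lie to the right of 0, and *Ndufaf3* is the only filled symbol to the left of it.

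Short transcripts and abundant transcripts in general were higher in KD, and members are short. The median exon length was 710 bp for the 88 members and 2690 bp for all genes with a value. Among all 387 genes of up to 500 bp the median log2 fold change was 0.83 and 39.8% were called higher. The 14 members of that length had a median of 1.02 with 7 called. Among all genes of 500 to 1000 bp the median log2 fold change was 0.45 and 22.9% were called higher. The 43 members of that length had a median of 0.82 with 16 called. Among all genes of 1000 to 2000 bp the median was 0.15 with 11.3% called, while the 22 members of that length had 0.85 with 7 called. All genes were also ranked by control value and split into 4 classes of 3846 genes. In the highest class the 330 genes of up to 1000 bp had a median of 0.99 with 49.4% called, and the 24 members among them had 0.72 with 7 called. Short and abundant members thus had a lower median than the other short and abundant genes, and longer or less abundant members a higher one than genes of their class. After a loess correction for exon length 13 members (14.8%) were called higher where 12.0% of all genes were, and after one for mean level 18 members were where 9.21% of all genes were. The median of the members less that of all genes was then 0.49 and 0.55, against 0.86 without a correction. Across the 88 members Spearman's rho between log2 fold change and exon length was -0.14, and between log2 fold change and control value -0.12, as a description, since these values come from the same libraries.

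**Figure D2:**
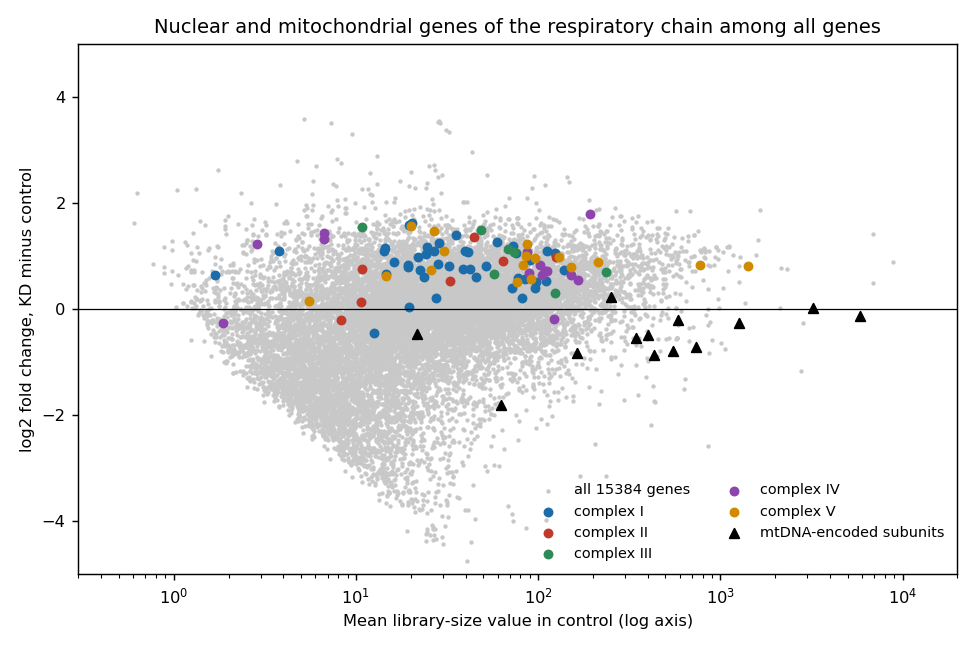
Log2 fold change (y axis) against the mean value in control (log x axis) for all 15384 genes in grey, the 88 members coloured by complex, and the 13 mtDNA-encoded subunits as black triangles. Members of every complex lie mostly between 0 and 2 over the whole range of levels, whereas most triangles lie below 0.

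Complex I is the largest assembly of the chain, and its core subunits carry the flavin and the iron-sulphur clusters. Of its 36 subunit genes with a value, 34 were higher at an adjusted p below 0.01 and 15 passed the fold threshold as well, with a median log2 fold change of 0.83. *Ndufs1*, which encodes the largest core subunit, had values of 114, 106, 114, and 111 in control and of 240.2, 231, 251, and 227 in KD, a log2 fold change of 1.09 (standard error 0.056, adjusted p = 8.23e-16, limma). *Ndufv1*, which binds NADH and FMN, had a log2 fold change of 0.74 and also passed an adjusted p below 0.01.

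The largest rises in complex I were in small accessory subunits. *Ndufs6* had 23.8, 17.4, 18.3, and 22.0 in control and 65.5, 62.7, 64.8, and 60.4 in KD, so that KD was 3.11 times control (log2 fold change 1.62 (standard error 0.09, adjusted p = 3.92e-15, limma)). *Ndufb3*, a subunit of the membrane arm, had 22.5, 17.4, 18.5, and 20.0 in control and 65.1, 56.9, 63.5, and 54.1 in KD (log2 fold change 1.59 (standard error 0.088, adjusted p = 4.54e-15, limma)). In both genes the groups lay far apart, with no KD library near the highest control library. *Ndufv3*, *Ndufa13*, and *Ndufb10* followed with log2 fold changes of 1.39, 1.27, and 1.26. At the other end, *Ndufab1*, the mitochondrial acyl carrier protein, had 19.6 ± 4.01 in control and 19.7 ± 0.623 in KD (SD, n = 4 each), with KD values inside the range of the control values (log2 fold change 0.03, adjusted p = 0.816, limma). It was 1.03 with spike-in scaling and -0.39 with an equal sum per library, both past an adjusted p of 0.01. *Ndufb7* had 81.7 ± 4.28 in control and 94.2 ± 5.77 in KD (SD, n = 4 each) and a log2 fold change of 0.20 (adjusted p = 0.0045, limma), which turned to -0.22 when libraries were scaled to an equal sum. It also lost the call without control replicate 2 (adjusted p = 0.0122), control replicate 3 (0.0150), KD replicate 2 (0.0158), or KD replicate 3 (0.0302), and with no trend (0.0245, limma in each). *Ndufa12* had the lowest values of the complex, 1.36, 2.07, 0.897, and 2.46 in control and 3.83, 3.05, 2.65, and 1.97 in KD, and did not pass (log2 fold change 0.65, adjusted p = 0.0323, limma). Exons of a gene on the opposite strand cover 55.1% of its exon length.

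*Ndufa4* carries a complex I symbol although its product is known as a subunit of complex IV. It had values of 112, 94.7, 116, and 116 in control and 165, 160.1, 164, and 144 in KD, a log2 fold change of 0.53 (standard error 0.066, adjusted p = 5.25e-08, limma). This value fell to between 0.09 and 0.11, with the call lost, by quantile normalisation, an equal sum per library, and the corrections for exon length and mean level (adjusted p = 0.132 to 0.212, limma). Its paralogue *Ndufa4l2*, known as a gene induced by hypoxia, stood at 2.45, 5.16, 2.33, and 5.20 in control and 8.77, 8.21, 8.42, and 7.19 in KD (log2 fold change 1.09 (standard error 0.21, adjusted p = 4.66e-05, limma)). Per kb of exon, the level of *Ndufa4* in KD was 321 and that of *Ndufa4l2* 8.47, so the paralogue stayed the minor form.

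Complex II, succinate dehydrogenase, also serves the TCA cycle. *Sdha*, its flavoprotein, had values of 133, 127, 107, and 137 in control and 241, 258, 245, and 247 in KD, a log2 fold change of 0.98 (standard error 0.065, adjusted p = 1.51e-13, limma). *Sdhb*, the iron-sulphur subunit, had 53.4, 37.7, 39.5, and 47.7 and 121, 117, 121, and 100.4, which was the largest log2 fold change of the complex (1.36 (standard error 0.087, adjusted p = 6.96e-14, limma)). *Sdhc*, a membrane anchor, had 73.2, 62.6, 67.4, and 53.6 and 125, 122, 117, and 118 (log2 fold change 0.91 (standard error 0.073, adjusted p = 9.59e-12, limma)). In all 3 genes every KD library lay above every control library, and *Sdhb* alone passed the fold threshold. *Sdhd*, the other anchor, had no value in the RNA-seq file.

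Complex III had the highest median of the complexes at 1.08, with 7 of 7 genes higher at an adjusted p below 0.01 and 4 past the fold threshold. *Uqcrq*, a small subunit, had values of 8.58, 14.8, 10.8, and 8.89 in control and 32.6, 31.7, 31.3, and 31.7 in KD (log2 fold change 1.55 (standard error 0.13, adjusted p = 1.26e-11, limma)). *Uqcrfs1*, the Rieske iron-sulphur protein, had 51.7, 43.9, 45.6, and 52.5 and 138, 138, 144, and 126 (log2 fold change 1.49 (standard error 0.068, adjusted p = 8.68e-17, limma)). The KD values were tight in both genes, and the control values of *Uqcrq* spread most. The core proteins moved less. *Uqcrc1* had 235 ± 22.4 in control and 381 ± 11.7 in KD (SD, n = 4 each) and a log2 fold change of 0.70, and *Uqcrc2* had 124 ± 6.80 in control and 152 ± 10.5 in KD and 0.29 (adjusted p = 8.47e-05, limma). The direction of *Uqcrc2* turned with 3 other ways of processing, to -0.13 by quantile normalisation and by an equal sum per library and to -0.14 with a correction for mean level. For *Uqcrc1* the value was 0.11 by quantile normalisation (adjusted p = 0.0391, limma) and 0.10 with that correction (adjusted p = 0.140, limma), so its call was lost. *Uqcrb* had a log2 fold change of 0.67 (adjusted p = 1.78e-09, limma).

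In complex IV, cytochrome c oxidase, 12 of 14 genes with a value were higher at an adjusted p below 0.01, 5 of them past the fold threshold, and the median log2 fold change was 0.72. *Cox4i1*, the common isoform of subunit 4, had the largest log2 fold change of all members. It stood at 190.3, 192, 189, and 194 in control and at 654, 672, 684, and 649 in KD, so that KD was 3.47 times control (log2 fold change 1.79 (standard error 0.052, adjusted p = 1.15e-20, limma)). Libraries within a group differed by a few percent, far less than the groups. The isoform *Cox4i2*, known from lung and from the response to low oxygen, had 3.13, 4.30, 2.33, and 1.64 and 6.55, 6.68, 7.32, and 7.65 (log2 fold change 1.23 (standard error 0.22, adjusted p = 9.89e-06, limma)). Per kb of exon *Cox4i1* stood at 282 in control and 979 in KD, and *Cox4i2* at 3.92 and 9.70.

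The other isoform pairs of complex IV could be compared only in part, since 4 of their members had no value. *Cox5a* and *Cox5b*, which encode different subunits, had log2 fold changes of 1.08 and 0.67. For subunit 6B, the common *Cox6b1* had 113 ± 6.00 in control and 185 ± 15.4 in KD (log2 fold change 0.71) and the testis isoform *Cox6b2* had 6.71 ± 1.04 in control and 17.5 ± 0.922 in KD (log2 fold change 1.33 (standard error 0.13, adjusted p = 7.36e-10, limma)). *Cox7a1*, the heart and muscle isoform of subunit 7A, had 8.71, 4.13, 7.18, and 6.84 in control and 19.8, 19.6, 20.7, and 14.4 in KD (log2 fold change 1.44 (standard error 0.17, adjusted p = 1.28e-08, limma)), and the common *Cox7a2* had no value. *Cox6a1* and *Cox8a* had log2 fold changes of 0.65 and 0.56, and their muscle or testis forms *Cox6a2*, *Cox8b*, and *Cox8c* had no value. *Cox8a* lost its call in 4 fits, with 0.05 by quantile normalisation, 0.04 with the correction for mean level, 0.16 with that for exon length, and 0.13 with an equal sum (adjusted p = 0.0120 to 0.508, limma). *Cox6a1* lost it with the correction for mean level (0.22, adjusted p = 0.0110, limma). *Cox7a2l*, known as a factor that joins complexes III and IV into supercomplexes, had 133, 114, 116, and 125 in control and 109.6, 106, 118, and 92.9 in KD. It was an abundant member with a negative log2 fold change, -0.20, and it missed the threshold narrowly (adjusted p = 0.0107, limma). It passed at -0.63 with an equal sum, -0.59 by quantile normalisation or with the correction for mean level, and -0.30 with that for exon length, and at 0.82 with spike-in scaling. At -0.20 it also passed with TMM, the replicate block, and edgeR (adjusted p = 0.00706, edgeR). Without control replicate 2, control replicate 3, or KD replicate 3 it passed at -0.23, -0.22, and -0.25 (adjusted p = 0.00338 to 0.00722, limma). For subunit 7B the common *Cox7b* was higher (log2 fold change 0.82, adjusted p = 5.27e-11, limma), while the testis isoform *Cox7b2* had 1.77, 1.55, 2.51, and 1.64 in control and 2.10, 1.70, 0.971, and 1.22 in KD and did not pass (log2 fold change -0.26, adjusted p = 0.388, limma).

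**Figure D3:**
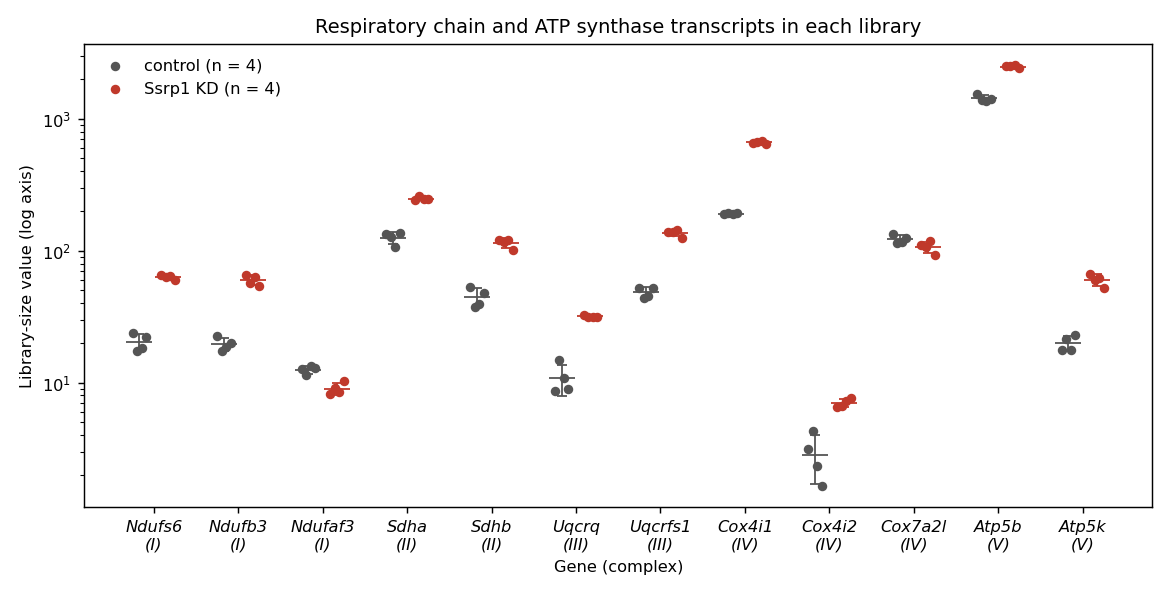
Library-size values (log y axis) of 12 members in each of the 4 control (grey) and 4 KD (red) libraries, with mean and SD as bars; the complex stands under each gene. The groups are apart for every gene shown but *Cox7a2l*, and *Ndufaf3* is the one in which KD lies below control.

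Complex V had 16 of 17 genes higher at an adjusted p below 0.01, 4 of them past the fold threshold, and a median of 0.84. *Atp5b* and *Atp5a1*, whose products form the catalytic head, had the highest values of the members. Per kb of exon *Atp5b* stood highest in control (758), followed by *Cox7c* (339) and *Atp5a1* (317), and in KD *Cox4i1* (979) came between *Atp5b* (1325) and *Atp5a1* (567). *Atp5b* had values of 1541, 1393, 1362, and 1404 in control and 2494, 2498, 2554, and 2411 in KD, a log2 fold change of 0.81 (standard error 0.068, adjusted p = 2.45e-11, limma). *Atp5a1* had 824, 762, 748, and 754 and 1392, 1395, 1373, and 1358 (log2 fold change 0.84), and *Atp5c1*, the gamma subunit of the central stalk, had a log2 fold change of 0.79. For *Atp5b* and *Atp5a1* the groups did not overlap, yet quantile normalisation brought the log2 fold change to -0.01 for *Atp5b* and to -0.02 for *Atp5a1*, and a correction for mean level gave -0.04 and 0.04. The largest changes were again in small subunits. *Atp5k*, subunit e of the membrane part, had 17.8, 21.5, 17.8, and 23.1 in control and 67.0, 60.1, 61.8, and 52.6 in KD (log2 fold change 1.57 (standard error 0.093, adjusted p = 1.72e-14, limma)), and *Atp5e*, the epsilon subunit, had 28.4, 20.0, 28.5, and 30.2 and 74.4, 73.7, 80.2, and 69.3 (log2 fold change 1.47 (standard error 0.095, adjusted p = 1.05e-13, limma)).

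*Atp5g1*, *Atp5g2*, and *Atp5g3* encode the same mature c subunit of the proton-carrying ring with different import signals. Their values were 96.7 ± 5.60 in control and 188 ± 11.7 in KD for *Atp5g1*, 91.5 ± 8.90 in control and 135 ± 7.95 in KD for *Atp5g2*, and 87.1 ± 7.35 in control and 205 ± 5.06 in KD for *Atp5g3* (SD, n = 4 each). Per kb of exon they stood at 111, 141, and 128 in control and at 217, 209, and 302 in KD, where *Atp5g3* was highest. Their log2 fold changes were 0.96, 0.57, and 1.23 (standard errors 0.061, 0.067, and 0.061), and *Atp5g2* lost its call with an equal sum (0.14, adjusted p = 0.0243, limma) and with the correction for mean level (0.17, adjusted p = 0.0225, limma). *Atp5l*, subunit g, had the lowest log2 fold change among the members of complex V that passed, 0.52 (adjusted p = 1.19e-06, limma). It lost the call by quantile normalisation (0.18), with the corrections for exon length (0.10) and mean level (0.16), and with an equal sum (0.09; adjusted p = 0.0312 to 0.281, limma). *Atp5s*, coupling factor B, had 5.58, 3.10, 7.35, and 6.02 and 5.68, 5.51, 6.35, and 6.09 and did not pass (log2 fold change 0.15, adjusted p = 0.509, limma), but passed by quantile normalisation (1.07), with spike-in scaling (1.08), and with the correction for mean level (1.22).

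The 11 assembly factors were expressed at lower levels than the subunits, with a median control value per kb of exon of 11.1 against 65.0. Of them 7 were higher and 1 was lower at an adjusted p below 0.01, and their median log2 fold change was 0.66. *Ndufaf2* (1.15) and *Ndufaf6* (1.10) passed the fold threshold. *Ndufaf3*, which acts early in complex I assembly, was the 1 member that fell, with values of 12.7, 11.4, 13.5, and 12.9 in control and 8.16, 9.09, 8.55, and 10.3 in KD (log2 fold change -0.46 (standard error 0.13, adjusted p = 0.00229, limma)). Its groups did not overlap, but it lost the call without KD replicate 1 (-0.42, adjusted p = 0.0109) or KD replicate 3 (-0.44, adjusted p = 0.0100, limma), the spike-in scaling gave 0.52, quantile normalisation 0.04, and the correction for mean level -0.02. *Sdhaf3*, an assembly factor of the iron-sulphur subunit SDHB, had 8.30 ± 1.53 in control and 7.04 ± 0.812 in KD and did not pass (log2 fold change -0.21, adjusted p = 0.225, limma), whereas it passed as higher by quantile normalisation (0.57) and with the correction for mean level (0.58) and as lower with that for exon length (-0.61) and with an equal sum (-0.62).

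The subunits encoded in mtDNA did not follow the nuclear genes. Of the 13 mtDNA-encoded subunits with a value, 9 were lower and 1 was higher at an adjusted p below 0.01. By that threshold 37.3% of all genes were lower and 35.4% higher. The median log2 fold change of the 13 was -0.49, against -0.03 for all genes. *ND4L* (complex I) fell most, with 62.6 ± 13.4 in control and 18.2 ± 7.98 in KD (SD, n = 4 each; log2 fold change -1.82 (standard error 0.17, adjusted p = 2.11e-10, limma)). *CYTB*, the mtDNA-encoded subunit of complex III, had a log2 fold change of -0.88 (standard error 0.077, adjusted p = 5.14e-11, limma), and *ATP6* of the ATP synthase one of -0.71 (standard error 0.06, adjusted p = 2.33e-11, limma). *COX1* and *COX3*, which had the highest values of the set, did not pass, with -0.13 (adjusted p = 0.229, limma) and 0.03 (adjusted p = 0.755, limma). *ND3* alone was higher (0.22, adjusted p = 0.0012, limma). The direction of the median depends on the scaling. It was 0.53 with the spike-in scaling, where the median of all genes was 0.95. With an equal sum per library it was -0.92, against -0.45 for all genes. The mtDNA-encoded subunits thus had a median below that of all genes with both scalings. With the spike-in scaling 4 of them were higher and 1 lower, as were 8616 and 1346 of all 15384 genes. By DESeq2 6 of them were lower, as were 5581 of all genes.

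A ratio within each library does not depend on its scaling. The summed nuclear members stood at 0.547, 0.552, 0.540, and 0.536 times the summed mtDNA-encoded subunits in the control libraries and at 1.07, 1.15, 1.14, and 1.15 in the KD libraries. The same ratio for the subunits of complex I alone lay between 0.748 and 0.876 in control and between 1.58 and 2.18 in KD. For complex IV it lay between 0.119 and 0.125 in control and between 0.237 and 0.244 in KD, for complex III between 1.35 and 1.54 and between 3.69 and 5.33, and for complex V between 4.18 and 4.63 and between 12.5 and 13.4. In each of the 4 complexes that draw on both genomes the groups were apart. KD replicate 1 stood apart in several mtDNA genes. *ND2* had 329.6, 342, 368, and 332 in control and 329, 205, 219, and 207 in KD, and *ND4* had 405, 385, 401, and 410.4 and 391, 240.5, 259, and 274, so that KD replicate 1 lay at or near the control values in both. *CYTB* had 301, 214, 213, and 224 in KD. Without this library 10 of the 13 were lower at an adjusted p below 0.01, as were 5476 of all 15384 genes. The ratios of KD replicate 1 were the lowest of the KD libraries.

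**Figure D4:**
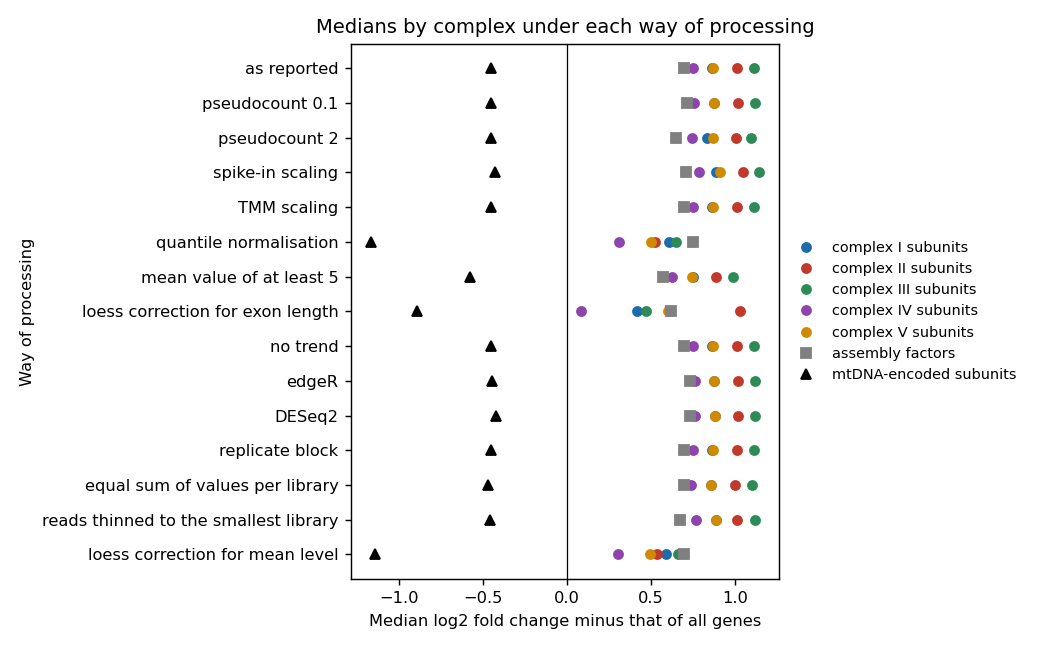
Median log2 fold change minus that of all genes (x axis) for the subunits of each complex, the 11 assembly factors, and the 13 mtDNA-encoded subunits, under each way of processing (y axis; leave-one-out fits not shown). The nuclear groups lie right of 0 and the mtDNA-encoded subunits left of 0 in every row, and complex IV comes closest to 0 with the correction for exon length.

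Between complexes the medians of the subunits, less that of all genes, ran from 0.75 in complex IV to 1.11 in complex III, with 0.87 in complexes I and V and 1.02 in complex II. Complex III stayed first, complex II second, and complex IV last with both pseudocounts, spike-in, TMM, and equal-sum scaling, a mean of at least 5, no trend, the replicate block, edgeR, DESeq2, thinned reads, and each library left out. Complexes I and V, close to each other, changed order among these fits, with 0.92 and 0.87 without control replicate 4. The places of the other complexes changed in 3 fits. By quantile normalisation complex I (0.61) came before complex II (0.52), as it did with the correction for mean level (0.59 and 0.53). With a loess correction for exon length complex II had 1.03, complex V 0.60, complex III 0.47, complex I 0.42, and complex IV 0.09. The spread among members of a complex was wider than the differences between the medians, from 0.03 to 1.62 in log2 fold change among the subunits of complex I and from -0.26 to 1.79 in complex IV. The place of complex II rests on 3 subunit genes. With assembly factors included, complex II had 0.80 and complex I 0.86, below the 0.87 of complex V. Complex III is counted without *Cyc1* (log2 fold change 0.74), which the symbol rule leaves out, and its place with that gene was not examined. No test was made between the complexes, since their genes are not replicates.

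Lists of genes that feed the chain or carry its electrons had medians below that of the members. The lists were not matched to the members in exon length or level. Of all genes 35.4% were higher and 37.3% lower at an adjusted p below 0.01. Past the fold threshold as well, 8.07% were higher and 20.6% lower. In the TCA cycle 12 of 13 genes were higher at an adjusted p below 0.01 and 1 passed the fold threshold (*Sucla2*, 1.30), while *Ogdh* stood at -0.17 (adjusted p = 0.0136, limma), with a median of 0.72. Of 12 genes of pyruvate dehydrogenase, its regulators, and pyruvate import, 10 were higher and 2 lower, 4 and 1 of them past the fold threshold, with a median of 0.62. *Pdk1*, a kinase that inactivates pyruvate dehydrogenase, had 37.8, 37.7, 27.1, and 26.9 in control and 340.3, 331, 327, and 317 in KD, a log2 fold change of 3.34 (standard error 0.086, adjusted p = 1.08e-21, limma), which exceeds that of any member. *Pdk2*, another such kinase, fell (log2 fold change -1.83 (standard error 0.2, adjusted p = 5.33e-09, limma)). Electron carriers and coenzyme Q synthesis had 8 of 14 genes higher, 2 of them past the fold threshold, and 2 lower (median 0.47). They ran from *Etfb* at 1.27 to *Etfdh* at -0.93. This list includes *Cyc1* (0.74), which the symbol rule leaves out of complex III.

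The medians of lists of assembly and control genes lay between those of the members and of all genes. Counts here are at an adjusted p below 0.01 alone, by which 35.4% of all genes were higher and 37.3% lower. Complex IV assembly factors had 11 of 18 genes higher (median 0.44, *Cox17* at 1.31, *Coa5* at -0.04). Assembly factors, regulators, and other genes of complexes III and V had 6 of 11 higher and 1 lower (median 0.43, *Uqcc2* at 1.28, *Lyrm7* at -1.14). The higher ones there include *Atpif1* (1.20) and *Usmg5* (0.74), which are not assembly factors. Other complex I assembly factors had 4 of 6 higher (median 0.53, *Ecsit* at 0.72, *Timmdc1* at 0.19). Genes of mtDNA expression had 11 of 14 higher (median 0.45), with *Slirp* at 1.16 and *Polrmt*, the mitochondrial RNA polymerase, lowest at 0.15. Of 10 nuclear regulators of respiratory genes with a value 6 were higher and 2 lower (median 0.36). *Gabpa*, an ETS factor known to bind many promoters of respiratory genes, had 125 ± 5.60 in control and 246 ± 9.00 in KD (SD, n = 4 each; log2 fold change 0.98 (standard error 0.055, adjusted p = 6.60e-15, limma)), and *Ppargc1b*, a coactivator of mitochondrial biogenesis, had 8.88 ± 2.33 in control and 2.36 ± 0.475 in KD (log2 fold change -1.69 (standard error 0.21, adjusted p = 3.27e-08, limma)). *Ppargc1a*, *Sco2*, and *Pet117* had no value.

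Promoters of the members were read from RefSeq (GRCm38.p6) to see what they share. Sequences of 250 bases before to 50 after the start were at hand for 80 of the 96 members. The letters GCGCANGCG of the NRF1 core, on either strand, stood in 23 of the 80 (28.8%), against 6.48% of all 27025 promoters and 17.3% of the 3004 promoters of the most expressed of 4 equal classes of genes. AAGATGGC of YY1 stood in 10 (12.5%, against 2.88% and 6.16%), and CCGGAAG of ETS factors in 19 (23.8%, against 9.27% and 22.6%). GGGCGG of SP1 stood in 47.5% of the members and in 36.2% and 71.8% of these promoters. By complex the NRF1 letters were in 10 of 39 promoters of complex I, 4 of 7 of complex II, 2 of 5 of complex III, 1 of 13 of complex IV, and 6 of 16 of complex V. A match is a description of letters, not of binding.

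The 250 bases before the RefSeq start follow for 5 members, each the one with the largest log2 fold change of its complex among the promoters at hand that cross no annotated exon, and for *Ndufaf3*, the member that fell. That start is the one of the count file, from which distances to peaks are taken below, in 4 of the 6 genes, and lies 21 bp from it in *Atp5k* and 94 bp in *Ndufaf3*. The sequences are shown to let the promoters of strongly changed members be compared. Capitals mark the NRF1, YY1, or ETS letters, which appear in *Ndufs6* and *Atp5k*, and all run 5′ to 3′ on the strand of the gene.
Ndufs6, chr13:73328483-73328732, minus strand: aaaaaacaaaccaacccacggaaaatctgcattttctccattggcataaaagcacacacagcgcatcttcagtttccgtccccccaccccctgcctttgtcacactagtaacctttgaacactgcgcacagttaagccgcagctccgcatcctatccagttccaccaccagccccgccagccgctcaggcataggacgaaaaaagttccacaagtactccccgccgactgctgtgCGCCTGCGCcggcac
Sdhb, chr4:140961021-140961270, plus strand: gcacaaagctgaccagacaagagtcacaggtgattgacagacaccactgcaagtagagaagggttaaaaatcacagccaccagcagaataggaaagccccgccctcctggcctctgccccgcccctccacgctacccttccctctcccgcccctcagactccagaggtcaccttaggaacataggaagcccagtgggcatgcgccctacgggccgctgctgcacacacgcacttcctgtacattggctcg
Uqcrfs1, chr13:30545317-30545566, minus strand: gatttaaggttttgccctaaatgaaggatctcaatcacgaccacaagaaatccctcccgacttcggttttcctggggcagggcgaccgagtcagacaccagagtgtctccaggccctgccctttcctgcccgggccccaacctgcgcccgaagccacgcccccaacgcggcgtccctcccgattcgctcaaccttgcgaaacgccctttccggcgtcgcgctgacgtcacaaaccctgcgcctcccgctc
Cox7a1, chr7:30183921-30184170, plus strand: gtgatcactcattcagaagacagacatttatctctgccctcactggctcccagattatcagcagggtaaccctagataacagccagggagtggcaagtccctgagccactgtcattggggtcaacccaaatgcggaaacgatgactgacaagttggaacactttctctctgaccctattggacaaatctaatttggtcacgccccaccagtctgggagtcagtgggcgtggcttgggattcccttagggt
Atp5k, chr5:108434400-108434649, minus strand: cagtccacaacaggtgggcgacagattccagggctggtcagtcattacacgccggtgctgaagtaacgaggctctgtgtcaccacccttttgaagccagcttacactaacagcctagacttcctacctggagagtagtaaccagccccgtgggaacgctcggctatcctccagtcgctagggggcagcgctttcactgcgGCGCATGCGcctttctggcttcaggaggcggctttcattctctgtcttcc
Ndufaf3, chr9:108567437-108567686, minus strand: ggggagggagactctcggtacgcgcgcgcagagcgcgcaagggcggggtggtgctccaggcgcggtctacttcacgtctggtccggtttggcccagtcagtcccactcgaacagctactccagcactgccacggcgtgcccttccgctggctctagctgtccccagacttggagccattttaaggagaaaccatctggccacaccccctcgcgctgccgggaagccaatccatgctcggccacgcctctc

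Many members start close to a gene on the opposite strand. A start within 1000 bp on the other strand was annotated for 30 of the 96 members (31.3%) and for 11.6% of all protein-coding genes, and among genes with an RNA-seq value for 28 of 88 members (31.8%) and 16.2% of protein-coding genes. Of 25 pairs with a value for both genes, the partner was higher in 18 and lower in 1 at an adjusted p below 0.01. By that threshold 35.4% of all genes were higher and 37.3% lower. The median log2 fold change of the partners was 0.58. Pairs of other genes were not compared. *Cox4i1* (1.79) pairs with *Emc8* (0.98) at a distance of 178 bp between the starts, *Atp5j* (1.09) with *Gabpa* (0.98) at 450 bp, and *Ndufa7* (1.19) with the ribosomal protein gene *Rps28* (1.69) at 116 bp. The members of a pair did not always move together. *Ndufb9* (0.51) pairs with *Tatdn1* (-0.47), and *Ndufa13* (1.27) with *Tssk6* (-0.02, adjusted p = 0.927, limma). Exons of *Ndufa13* and *Tssk6* overlap over 27.5% of the exon length of *Ndufa13*, and those of *Atp5j* and *Gabpa* over 16.2% of *Atp5j*. The sources used here do not say whether the counting used strand.

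The 8 members without an RNA-seq value were *Ndufa6*, *Ndufa8*, *Sdhd*, *Uqcr11*, *Cox6a2*, *Cox7a2*, *Cox8b*, and *Cox8c*. Exons of a gene on the opposite strand cover 60.9% of the exon length of *Ndufa6*, 80.2% of *Ndufa8*, 90.8% of *Sdhd*, 95.4% of *Uqcr11*, and 48.9% of *Cox7a2*. In the chromatin RNA these 5 genes had between 0 and 3 counts in a library. *Cox6a2*, *Cox8b*, and *Cox8c*, known from muscle or testis, had an overlap of 10.6% in *Cox6a2* and none in the others. Among the members with a value, an overlap of similar size was found in *Ndufa12* (55.1%) and *Atp5d* (50.7%), which had 12.0, 16.9, 13.1, and 16.5 in control and 22.9, 21.3, 21.8, and 24.2 in KD. The part of the overlaps in these values was not tested.

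The ChIP-seq of FACT in mESCs with no treatment in their labels shows where its subunits were found near these genes. By the authors' assignment to the nearest gene, 42 SSRP1 peaks belonged to 33 of the 96 members, and 15 SUPT16 peaks to 13. Among genes with an RNA-seq value, 31 of 88 members had an SSRP1 peak (35.2%, against 5542 of all 15384 genes) and 13 a SUPT16 peak (14.8%, against 18.6%). A peak within 1000 bp of the gene start, whichever gene it was assigned to, was found for 27 of the 88 with SSRP1 (30.7%, against 24.4% of all genes) and for 13 with SUPT16 (14.8%, against 14.4%). In the most expressed class, which holds 42 members, the SSRP1 share was 38.1% for members and 36.9% for all genes, and the SUPT16 share 11.9% and 24.0%. In the class next to the lowest, 6 of 16 members had a SUPT16 peak (37.5%, against 9.83% of all genes). No test was made of these shares.

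**Figure D5:**
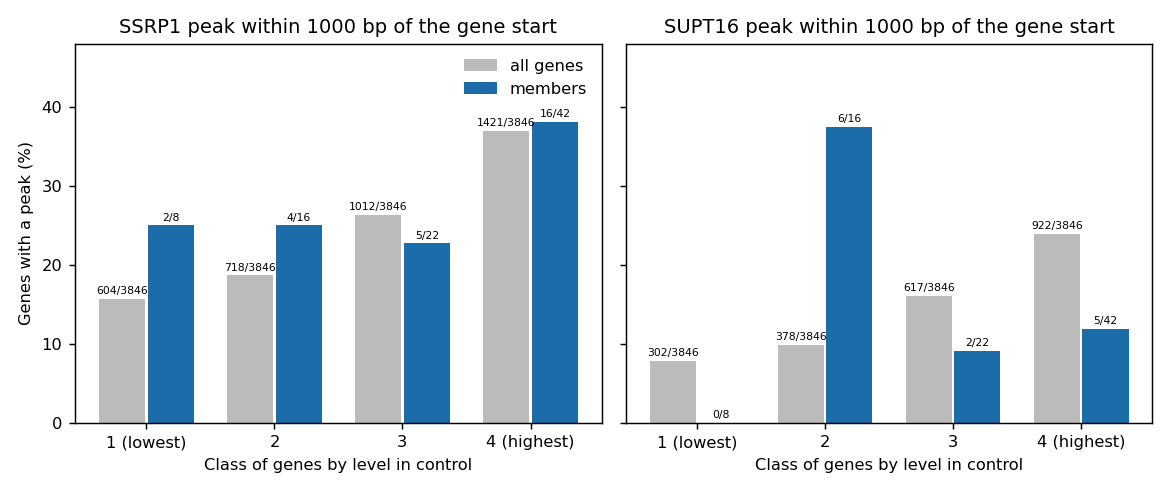
Share of genes with a peak within 1000 bp of the gene start (y axis, %), by class of control expression (x axis, 4 classes of 3846 genes), for all genes (grey) and members (blue), with SSRP1 left and SUPT16 right; fractions give genes with a peak over genes. For SSRP1 the bars of all genes rise over the classes and those of members lie between 22.7% and 25.0% before 38.1% in the highest, and for SUPT16 the 42 members of that class stand below all genes.

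SSRP1 peaks at the start were counted by complex. Complex III had such a peak within 1000 bp in 7 of 8 genes, complex I in 11 of 45 (24.4%), and complex II in 2 of 8 (25%). Complex IV had it in 2 of 18 (11.1%) and complex V in 6 of 17 (35.3%). Among all genes with an RNA-seq value the share was 24.4%, so complexes I and II lay near it. In complex III, *Uqcrfs1* was the gene without it. The 2 genes of complex IV were *Cox4i1* and *Cox6b2*. Most cytochrome c oxidase genes had none, as had most of all genes. Of the 28 members with such a peak 15 also have an opposite start within 1000 bp, so that a peak cannot be assigned to 1 gene of the pair.

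Peaks of both subunits were assigned to 10 members, namely *Ndufa13*, *Ndufb10*, *Ndufaf3*, *Ndufaf7*, *Uqcrq*, *Cox4i1*, *Atp5a1*, *Atp5b*, *Atp5h*, and *Atp5j*. At *Cox4i1* the SSRP1 peak (chr8:120667792-120668380) and the SUPT16 peak (chr8:120668240-120668520) both cover the start at 120668290 of mm10. At *Ndufaf7* (start 78937135 on chromosome 17) both peaks cover the start as well, over 589 and 421 bp. At *Ndufaf3* (start 108567342 on chromosome 9) they cover it over 2255 and 1401 bp, and at *Ndufa13* (start 69902558 on chromosome 8) over 2353 and 771 bp. At *Uqcrq* and *Atp5j* both subunits lay within 55 bp of the start or over it. At *Ndufb10* the SSRP1 peak was the longest among members, 4901 bp, and lay downstream of the start by 654 bp. At *Atp5h* and *Atp5a1* the assigned peaks were 2144 bp or more from the start, and at *Atp5b* SSRP1 lay 145 bp from it and SUPT16 2347 bp upstream. Within 1000 bp of the *Atp5h* start there was also an SSRP1 peak assigned to another gene. These 10 genes include the largest rise among members (*Cox4i1*) and the 1 fall (*Ndufaf3*). *Atp5h* had a log2 fold change of 0.82 and *Ndufaf7* one of 0.79.

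The change in RNA was set beside the peaks. The median log2 fold change was 0.84 for the 31 members with an assigned SSRP1 peak and 0.82 for the 57 without, while all genes had 0.12 with and -0.14 without. With SSRP1 within 1000 bp of the start it was 0.98 in 27 members and 0.82 in 61, of which 12 (44.4%) and 19 (31.1%) were called higher, against 11.6% and 6.94% of all genes with and without such a peak. With SUPT16 assigned it was 0.84 in 13 and 0.82 in 75 members, of which 6 (46.2%) and 25 (33.3%) were called. For all genes it was 0.15 with an assigned SUPT16 peak and -0.09 without, and 10.9% and 7.42% were called higher. With SUPT16 within 1000 bp of the start the order of the members turned, with 0.79 in 13 and 0.82 in 75. Of these again 6 and 25 were called, against 12.0% and 7.41% of all genes. These medians are descriptions with no test, and ChIP-seq of KD cells was not analysed here.

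The chromatin RNA of mESCs was read at low depth for these genes. The 2 libraries held 3441643 and 3393923 counts, of which 191237 and 317468 fell on protein-coding genes and 1074 and 1528 on members. The members took 0.562% of protein-coding counts in library 1 (95% exact binomial interval 0.529 to 0.596%) and 0.481% in library 2 (0.458 to 0.506%), where the intervals cover counting error only. The median member had 6 counts in library 1 and 8 in library 2, and 5 members had 0 in both (*Ndufs5*, *Sdhd*, *Uqcr11*, *Cox7b2*, and *Cox8b*). Per kb of exon, the 91 members with a count had a median percentile of 87.1 among the 15531 protein-coding genes with a count.

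*Atp5b* had 156 and 186 counts in libraries 1 and 2, *Atp5a1* 95 and 120, and *Cox4i1* 37 and 58, which were the highest counts among members, not divided by length. *Sdha* had 28 and 41 counts, *Uqcrc1* 23 and 41, and *Ndufs1* 27 and 29, which shows how few reads stand behind even the abundant members. Over the 13174 genes with both kinds of value, the 86 members had a median percentile per kb of 92.9 in control total RNA and of 86.0 in chromatin RNA, and 56 of the 86 ranked lower in chromatin. *Cox7a2l* had 1 and 2 counts and *Atp5g1* 2 and 1, although both were abundant in total RNA of control cells. Between members with few counts, differences in chromatin RNA were not detectable at this depth.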

How the data were processed

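RNA-seq signal per gene was made by the authors with STAR on mm10 and featureCounts, and deposited for genes above 1 CPM in a scaling to library size, used here, and in a scaling to spike-ins, used as an alternative. Every value was a whole multiple of 1 read (100% within 0.1 read). Chromatin RNA counts were deposited raw. Peaks were called by the authors with Bowtie2 and PePr on 2 replicates together and assigned with ChIP-Enrich. The authors' tables of KD against control, of NPCs against mESCs, and of exon usage hold their fold changes and p-values, and were not used. MNase-seq, ATAC-seq, and NET-seq were not analysed here. Of the columns with values per sample, 0 lacked a sample.

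The fit used limma 3.58.1 with trend on log2(value + 0.5) of 15384 genes, 4 control against 4 KD libraries, two-sided, with Benjamini-Hochberg adjustment over all genes. A gene was called at an adjusted p below 0.01, with or without a log2 fold change beyond 1 or -1. A fold change on this scale understates that of low genes. Alternatives used pseudocounts of 0.1 and 2, spike-in, TMM, quantile, and equal-sum scaling, a mean of at least 5, loess corrections for exon length and for mean level, no trend, a replicate block, thinned reads, the count models of edgeR 4.0.16 and DESeq2 1.42.0 on the recovered reads, and fits without each library in turn. Each tool was tested on simulated data. Libraries of a group differed by more than sampling noise (chi-square over its degrees of freedom, 1.88 to 6.61). Levels between genes were compared per kb of exon.

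Named members were the *Sdh* genes, the extremes of each complex and of the assembly factors, up to 12 called members with groups that do not overlap, paralogous isoforms, core subunits, and members with peaks of both subunits. The values of 1 member are not reported here by name. The overlap, promoter, and pair examples were chosen after their values were seen. Members and lists were chosen with earlier results of these data known. Python 3.11.15, pandas 2.3.3, and R 4.3.3 were used.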

Additional observations from a re-analysis of the deposited data

Results flagged for a closer look

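Within the groups of 4 libraries, 1 library lay far from the others for 5 of 94 groups examined (47 named members in 2 groups each), where chance alone would give about 1 in 20. *Ndufa13* had 146 in KD replicate 3 against 141 in the lowest KD library, and *Atp5j* had 72.8 in KD replicate 1 against a lowest KD value of 62.1. *Cox7a1* had 14.4 in KD replicate 4, with the highest KD value at 20.7, and *Cox8a* had 227 there, with the highest at 249.9. *Atp5g1* had 88.4 in control replicate 3, with the highest control value at 101. In each of these genes the control and KD groups did not overlap with that library included.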

How the results depend on the processing

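The count of members called higher (31) was within 1.5 times that value under most alternatives, from 21 by quantile normalisation to 35 by DESeq2 and 29 to 34 with 1 library left out. It was 84 with spike-in scaling, 13 with the loess correction for exon length, 8 with an equal sum per library, and 18 with the loess correction for mean level, the last 2 chosen after seeing the data, as was thinning of reads. The count of members called lower was 0 in every fit (0 to 0 with 1 library left out). By adjusted p alone 79 members were higher, 63 to 85 over all alternatives and 78 to 79 with 1 library left out. The 1 lower member became 0 with spike-in scaling and with thinned reads, 2 with TMM, edgeR, and the replicate block, 4 with the correction for exon length, and 5 with an equal sum, and 0 to 2 with 1 library left out. It was 0 without KD replicate 1 and 2 without control replicate 2 or control replicate 3. The median of the members less that of all genes (0.86) was 0.58 by quantile normalisation, 0.73 with a mean of at least 5, 0.49 with the correction for exon length, 0.55 with that for mean level, and 0.83 to 0.91 with 1 library left out. Peaks of at least 500 bp left 19 members with an SSRP1 peak in place of 33 and 5 with a SUPT16 peak in place of 13. The chromatin percentile (87.1) was 89.3 for genes with a mean of at least 10 counts and 85.4 to 86.1 with 1 library.

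Some named members changed sign. By quantile normalisation the log2 fold change was -0.0192 for *Atp5a1*, -0.00860 for *Atp5b*, 0.0428 for *Ndufaf3*, -0.13 for *Ndufb7* and *Uqcrc2*, 0.74 for *Cox7b2*, and 0.57 for *Sdhaf3*. With the correction for mean level it was -0.0391 for *Atp5b*, -0.14 for *Ndufb7* and *Uqcrc2*, and 0.58 for *Sdhaf3*. With an equal sum it was -0.39 for *Ndufab1*, -0.22 for *Ndufb7*, and -0.13 for *Uqcrc2*. With spike-in scaling it was 0.82 for *Cox7a2l* and 0.52 for *Ndufaf3*, and with the correction for exon length -0.20 for *Ndufb7*. The cause was not tested. Of 49 named genes, 32 kept direction and side of the threshold in all their fits.

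Control and KD libraries of the same number did not deviate together (correlations of 0.02, -0.02, -0.06, and -0.02). No effect shared by libraries of the same number was thus seen. Such correlations cannot tell whether these libraries were prepared together, which the labels do not say. With the replicate block 31 members were called higher and 0 lower, and by adjusted p alone 79 were higher and 2 lower, *Cox7a2l* having joined at 0.00709.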
